A study of Mus musculus with 5 samples.

Results

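Growth arrest targets of p53 were followed in bone marrow (BM) after cyclophosphamide (CTX) with 9 of the 31053 genes in the count matrices: Cdkn1a, Btg2, Plk2, Mdm2, Ccng1, Trp53inp1, Phlda3, Sesn2 and Zmat3. They were found by gene symbol, all 9 were present once, and all 9 had unique molecular identifiers (UMIs) in each of the 5 libraries. The set was selected on the levels of D2 CTX and naive BM in these libraries, which were already known, so the D2 CTX over naive differences are given as a description and carry no test.

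The transcription factor p53 is kept scarce by Mdm2, a ubiquitin ligase that marks it for degradation. When DNA is damaged, kinases such as ATM release p53 from Mdm2, and p53 binds pairs of decamers near its target genes and raises their transcription. The targets followed here slow the cell cycle, damp growth signals or feed back on p53, while another group of targets, such as Bax and Bbc3, promotes cell death. CTX is an alkylating agent that crosslinks DNA, and blood-forming progenitors are among the normal cells it affects most.

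Single-cell RNA was counted in 5 libraries of BALB/c mice a few weeks old. Whole BM came from untreated mice (naive BM) and from mice 2 days (D2 CTX BM) or 7 days (D7 CTX BM) after 1 intraperitoneal dose of 150 mg/kg CTX, with equal cell numbers of 3 mice pooled per library and dead cells removed with beads. The other 2 libraries held sorted CD11b+Ly6Chi cells, 1 from untreated (naive sorted) and 1 from CTX-treated marrow (CTX sorted), for which the labels give no day and the study's text gives day 7, and the number of mice behind a sorted library was not stated. Each condition was 1 library, so nothing could be set against the spread between mice, no test was possible, and every interval covers counting error only. The genotype field of the labels holds CD45+ for whole BM and CD11b+Ly6Chi for the sorted cells, and names no mutation.

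After cells with fewer than 200 genes or at least 20% mitochondrial UMIs were left out, 1891 to 8290 cells and 22279758 to 67921924 UMIs remained per library, with a median of 3034 UMIs per cell in D2 CTX BM and 7190 in D7 CTX BM. Between 2 and 16 cell barcodes were shared by any pair of libraries. In the sorted libraries, 93.2% of naive and 89.8% of CTX cells passed the monocyte gate described below, the monocyte gene Ccr2 had a UMI in at least 95.2% of cells, and the T cell gene Cd3e had none. A level is the UMIs of a gene per 1000000 of its library or class (CPM), its interval is the exact Poisson 95% interval, and a fold is the ratio of 2 CPM values with the exact conditional 95% interval of its counts. A gene was called higher or lower where CPM + 1 differed by at least 1 log2 unit, among genes with at least 50 UMIs over both libraries.

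In D2 CTX BM, 7 of the 9 genes were called higher than in naive BM and none lower, where 6.35% of 12671 genes were called higher and 2.98% lower. The 7 were Cdkn1a, Plk2, Ccng1, Trp53inp1, Phlda3, Sesn2 and Zmat3, and the remaining Mdm2 and Btg2 were higher by less than the limit. The median log2 ratio was 1.70 over the 9 genes and 0.20 over all genes compared. Ordered by that ratio, Phlda3 stood at place 1 of the 12671 genes, Cdkn1a at place 3, Zmat3 at place 6 and Ccng1 at place 11.

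Cdkn1a encodes p21, the inhibitor of cyclin-dependent kinases through which p53 stops the cell cycle. It lies on chromosome 17 (GRCm38, 29090976 to 29100727, plus strand), where AC167363.2 overlaps it on the opposite strand. Its level was 14.8 CPM in naive, 159 CPM in D2 CTX and 12.8 CPM in D7 CTX BM, and 141 CPM in naive sorted and 84.4 CPM in CTX sorted cells. D2 CTX BM was thus 10.7-fold (9.9 to 11.6) above naive BM, while both sorted libraries lay far above naive and D7 CTX BM. Plk2, a polo-like kinase that acts on centriole duplication, was at 4.58 CPM in naive, 16.5 CPM in D2 CTX and 2.09 CPM in D7 CTX BM, and at 26.9 CPM in naive sorted and 10.5 CPM in CTX sorted cells. The D2 CTX level was 3.602-fold (3.07 to 4.24) the naive level and below that of naive sorted cells. Btg2, an antiproliferative protein that recruits the deadenylase complex to mRNAs, was at 263 CPM in naive, 332 CPM in D2 CTX and 189 CPM in D7 CTX BM, and at 489.8 CPM and 341 CPM in naive and CTX sorted cells. Its D2 CTX level exceeded the naive level 1.26-fold (1.23 to 1.3), and 1.08-fold when the libraries were scaled by the median ratio of all genes.

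Mdm2 and Ccng1 feed back on p53, the first as its ligase and the second, cyclin G1, through a phosphatase that acts on Mdm2. Mdm2 was at 48.7 CPM in naive, 95.8 CPM in D2 CTX and 49.2 CPM in D7 CTX BM, and at 49.2 CPM in naive sorted and 45.7 CPM in CTX sorted cells. Only the D2 CTX library stood apart, at 1.97-fold (1.86 to 2.08) the naive level, which is below the limit for a call. Ccng1 was at 29.1 CPM in naive, 209 CPM in D2 CTX and 20.5 CPM in D7 CTX BM, and at 31.7 CPM and 28.2 CPM in naive and CTX sorted cells. Its D2 CTX level was 7.17-fold (6.76 to 7.61) the naive level, and the other 4 libraries lay close together. Trp53inp1, a nuclear protein that takes part in the phosphorylation of p53, was at 65.2 CPM in naive, 151 CPM in D2 CTX and 37.8 CPM in D7 CTX BM, against 8.53 CPM in naive sorted and 7.93 CPM in CTX sorted cells. The D2 CTX fold over naive BM was 2.32 (2.22 to 2.43), or 1.98 under scaling by the median ratio, where the call was lost.

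The last 3 genes act on growth signals and RNA. Phlda3, which keeps the kinase AKT from the membrane, was at 1.56 CPM in naive BM (72 UMIs), 39.95 CPM in D2 CTX BM (1356 UMIs) and 0.456 CPM in D7 CTX BM (31 UMIs), with 8 UMIs in naive sorted and 6 UMIs in CTX sorted cells. It was close to absent outside D2 CTX BM, where it was 25.6-fold (20.2 to 32.9) higher than in naive BM. Sesn2, a leucine sensor upstream of mTORC1, was at 8.99 CPM in naive, 31.4 CPM in D2 CTX and 7.39 CPM in D7 CTX BM, and at 6.19 CPM and 6.50 CPM in naive and CTX sorted cells. Zmat3, a zinc finger protein that regulates splicing, was at 2.15 CPM in naive, 27.4 CPM in D2 CTX and 0.898 CPM in D7 CTX BM, and at 2.02 CPM and 2.55 CPM in the sorted libraries. D2 CTX BM was 3.49-fold (3.12 to 3.92) above naive BM for Sesn2 and 12.8-fold (10.4 to 15.8) for Zmat3. Gm12981 overlaps Sesn2 on the same strand, so reads of the pair cannot be told apart where they overlap.

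**Figure D1:**
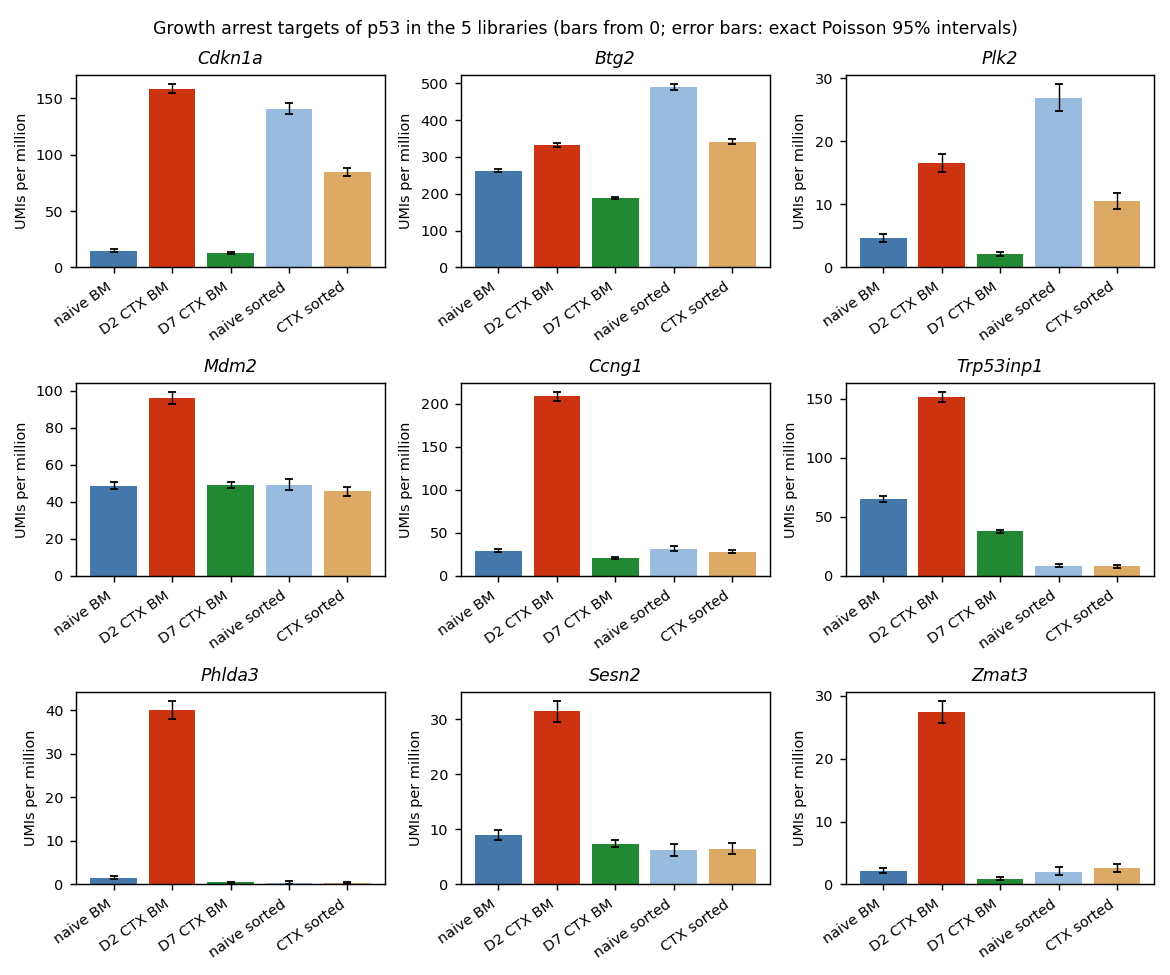
Level of each gene in CPM in the 5 libraries, as bars from 0 with exact Poisson 95% intervals. D2 CTX BM is the tallest bar for 7 genes, with Cdkn1a nearly as high in naive sorted cells (141 against 159 CPM), while Btg2 and Plk2 are highest in naive sorted cells.

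Deep cells weighed heavily in the summed D2 CTX levels. Kit-positive progenitors, 1 of the classes defined below, were 2.30% of the D2 CTX cells and held 11.8% of their UMIs, but 30.6% of those of Zmat3, 24.0% of those of Phlda3 and 15.6% of those of Cdkn1a. The 462 D2 CTX cells that met no class held 978 of the 5390 Cdkn1a UMIs, 285 of the 1356 of Phlda3 and 214 of the 930 of Zmat3. Their levels were 258, 75.2 and 56.5 CPM, and they are not part of the comparisons by class. When each cell was given equal weight by averaging CPM over cells, the D2 CTX over naive folds were 10.9 for Phlda3, 6.36 for Zmat3, 5.70 for Cdkn1a, 4.42 for Ccng1 and 2.24 for Plk2, each more than 1.5 times smaller than in the summed counts, and all 7 calls were kept. With the D2 CTX classes weighted by their share of UMIs in naive BM, the same 7 genes were called and Cdkn1a was 14.0-fold higher. That fold leaned on erythroid cells, which held 7083232 of the 46065849 naive UMIs. In D2 CTX BM they were only 45 cells, with 375 CPM of Cdkn1a (134 UMIs). Fewer cells of a type and less RNA per cell cannot be told apart in the summed library levels, which is why levels within classes are given below.

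Decamers of the p53 consensus were searched in RefSeq promoter windows (GRCm38.p6) of 250 bases before and 50 bases after a start site, on both strands, which read alike for this consensus. Windows were found for 7 of the 9 genes, all but Zmat3 and Trp53inp1, with 8 windows in all since Cdkn1a has 2, and 3 of the 8 windows held an exact decamer, against 8.36% of 32851 windows. The upstream start of Cdkn1a held a pair with a gap of 12 bases, an arrangement with a gap of at most 13 bases that 0.0731% of windows had. The 3 stretches with matches are shown 5′ to 3′ on the strand of the gene, with the decamers in capitals, because they hold every exact match in the 8 windows. A match describes the sequence and is not a measured binding site.
Cdkn1a, chr17:29090872-29090971, plus strand, decamers starting 73 and 51 bases before the start: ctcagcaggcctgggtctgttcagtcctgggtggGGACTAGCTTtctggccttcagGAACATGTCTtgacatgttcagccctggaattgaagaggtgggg
Ccng1, chr11:40755417-40755516, minus strand, decamer starting 185 bases before the start: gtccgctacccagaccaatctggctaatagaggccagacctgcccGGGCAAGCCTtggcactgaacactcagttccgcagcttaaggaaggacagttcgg
Mdm2, chr10:117710890-117710989, minus strand, decamer starting 186 bases before the start: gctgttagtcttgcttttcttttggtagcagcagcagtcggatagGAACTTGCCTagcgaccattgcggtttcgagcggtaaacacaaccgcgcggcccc
The windows of Phlda3, Btg2, Sesn2, Plk2 and the second start of Cdkn1a held no exact decamer, which says only that these letters are not in those windows. Genes with a match (Cdkn1a, Ccng1, Mdm2) spanned D2 CTX over naive folds from 1.97 to 10.7, and Phlda3, without one, had the highest fold.

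To look at the genes apart from the mix of cells, each cell was placed in 1 of 16 classes by fixed marker genes, and each name below stands for such a gate, so that a cell called a GMP is GMP-like by its markers. In whole BM, 6.52% of cells met no class and 12.7% lay near a boundary. In both naive and D2 CTX BM, 12 classes had at least 50 cells. Over these 12 classes, 77 of 108 pairs of a gene and a class had enough UMIs, 58 were called higher in D2 CTX BM and 0 lower, where 6.11% of all such pairs were called higher. A pair with few naive UMIs could reach the 50 UMIs only through D2 CTX BM, which can fix its call, so these counts are a description only.

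All 9 genes were compared in Kit-positive progenitors and 8 were called higher, with Btg2 the exception, where 3.65% of genes were called higher. In GMPs 7 of 8 genes were called (background 13.8%), in pre-neutrophils 7 of 8 (3.99%) and in monocytes 7 of 8 (4.76%), and in each of the 3 classes Btg2 was again the gene not called. Basophils or mast cells had 5 of 5 called, Btg2 included (6.68%), plasmacytoid dendritic cells 5 of 7 (3.48%) and pro-B or pre-B cells 5 of 7 (11.6%). NK cells had 4 of 5 (6.18%), B cells 4 of 8 (3.31%), mature neutrophils 3 of 7 (4.94%), T cells 2 of 4 (3.8%), and macrophages 1 of 1, which was Btg2 (7.3%). The median depth per cell was higher in D2 CTX than in naive Kit-positive progenitors (26694 against 10067 UMIs) and GMPs (38517 against 10984). It was lower in pre-neutrophils (5161 against 5670), basophils or mast cells (3087 against 4380), NK cells (3002 against 4535) and pro-B or pre-B cells (2492 against 3157), and the part of depth in the calls was not tested. When classes were set by clusters, plasmacytoid dendritic cells had 0 of 4 genes called and no GMP class could be compared, and with the mean of single cells pro-B or pre-B cells had 2 of 7 called and plasmacytoid dendritic cells 3 of 7.

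Within classes, Cdkn1a rose most in GMPs, from 3.31 CPM (7 UMIs) in naive to 229 CPM (645 UMIs) in D2 CTX BM, or 69.1-fold (33.4 to 173). By marker genes, the class next closest to GMP was monocyte in the 71 D2 CTX cells and Kit-positive progenitor in the 185 naive cells. Whether this gate held like cells in both libraries was not tested. In pre-neutrophils Cdkn1a went from 6.56 CPM to 132 CPM, 20.1-fold (16.1 to 25.5). In monocytes, where the naive level was already 58.7 CPM, it went to 558 CPM, 9.49-fold (8.19 to 11.05). Basophils or mast cells reached the highest D2 CTX level of the 12 classes, 752 CPM against 69.2 CPM. B cells stood at the other end with 18.0 CPM against 5.46 CPM, 3.29-fold (1.79 to 6.55). Erythroid cells numbered only 45 in D2 CTX BM and were not counted, but held 375 CPM of Cdkn1a against 2.68 CPM in naive BM. Plk2 was called in 5 of the 6 classes where it was compared, up to 7.75-fold (4.20 to 15.4) in pre-neutrophils, from 1.02 CPM to 7.87 CPM.

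Btg2 did not move with the rest. In Kit-positive progenitors it was at 139.7 CPM in naive and 80.7 CPM in D2 CTX BM, a fold of 0.578 (0.482 to 0.694) with Cdkn1a 7.14-fold higher in the same cells. In basophils or mast cells it was at 286 CPM and 790.0 CPM, 2.77-fold (2.23 to 3.45). Mature neutrophils, the class with most of its UMIs, had 743 CPM and 739 CPM, a fold of 0.995 (0.944 to 1.05). Of the immediate early genes, a list of 12 that includes Fos and Egr1, 10 were compared in basophils or mast cells. There 6 were called higher (background 6.68%) and 0 lower, and the summed level of the list went from 7816 CPM to 14321 CPM. In Kit-positive progenitors, where Btg2 was lower, 4 of 11 (Fos, Fosb, Klf6 and Nr4a1) were also called higher (background 3.65%) and 0 lower. The part of these genes in the Btg2 level was not tested.

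Ccng1 was called in 11 of the 11 classes where it was compared. Its folds ran from 2.11 (1.45 to 3.17) in T cells to 14.1 (10.7 to 19.02) in GMPs, where it went from 24.6 CPM to 347 CPM. In pre-neutrophils it went from 19.6 CPM to 209 CPM and in mature neutrophils from 17.2 CPM to 74.2 CPM. Mdm2 was called in 6 of 11 classes, with 3.78-fold (2.49 to 5.86) in basophils or mast cells, 3.43-fold (2.79 to 4.24) in monocytes and 3.24-fold (2.34 to 4.57) in GMPs. In B cells, T cells and plasmacytoid dendritic cells the Mdm2 folds were 1.22, 1.24 and 1.24. Trp53inp1 was called in 9 of 11 classes, most in basophils or mast cells, where it went from 15.6 CPM (7 UMIs) to 144 CPM (46 UMIs).

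Phlda3 had at most 5 UMIs in 11 of the 12 naive classes and 22 in pro-B or pre-B cells. In D2 CTX BM it reached 87.5 CPM in monocytes (149 UMIs), 82.7 CPM in GMPs (233 UMIs) and 81.5 CPM in Kit-positive progenitors (326 UMIs), but 1.80 CPM in mature neutrophils (9 UMIs). Mature neutrophils were therefore low in Phlda3 before and after CTX. Sesn2 differed between classes before treatment, and its naive level was 48.2 CPM in mature neutrophils and 1.89 CPM in GMPs. It was 18.7-fold (6.29 to 91.7) higher in D2 CTX Kit-positive progenitors, from 3 to 161 UMIs, and 1.51-fold (1.25 to 1.84) in mature neutrophils. Zmat3 had enough UMIs in 4 classes, mainly through D2 CTX BM. It went from 9 to 285 UMIs in Kit-positive progenitors (6.45 CPM and 71.2 CPM), from 4 to 80 in GMPs (1.89 CPM and 28.4 CPM), from 7 to 59 in plasmacytoid dendritic cells (7.90 CPM and 47.3 CPM) and from 17 to 90 in B cells (7.14 CPM and 27.4 CPM).

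**Figure D2:**
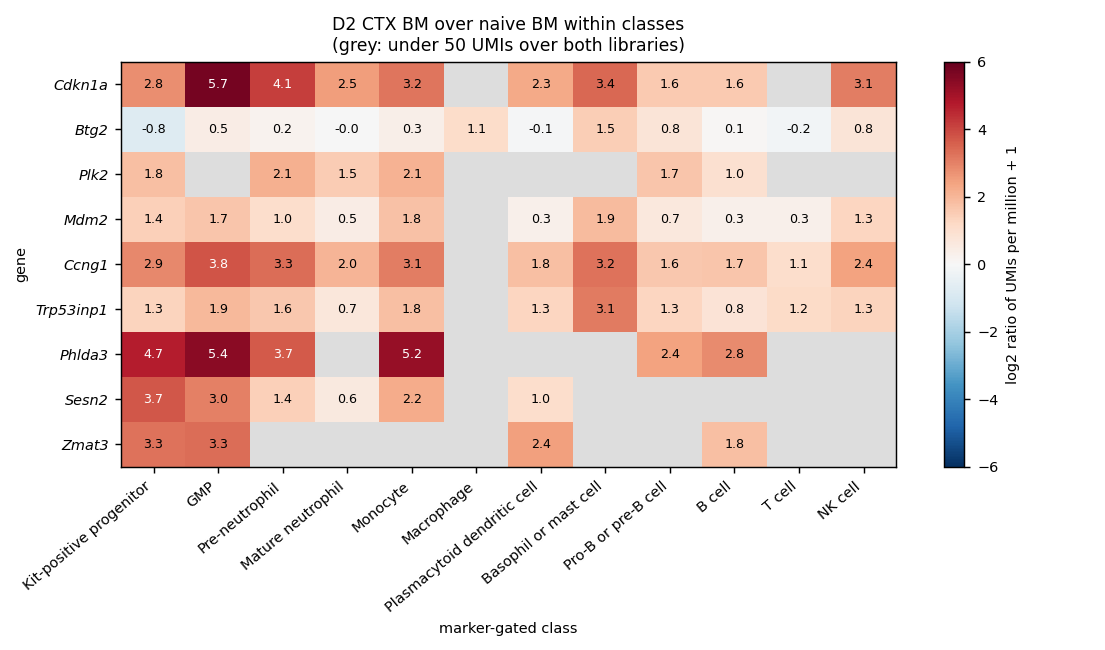
Log2 ratio of CPM + 1 between D2 CTX and naive BM for each gene (rows) in each of 12 marker-gated classes (columns), with grey where both libraries together held under 50 UMIs. Ratios are highest for Cdkn1a and Phlda3 in GMPs, 5.74 and 5.43, and lowest for Btg2 in Kit-positive progenitors, -0.78.

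Plasma cells, with 43 naive and 51 D2 CTX cells, changed little as far as their counts go. Ccng1 was at 26.1 CPM and 38.4 CPM, Mdm2 at 31.7 CPM and 27.0 CPM, Trp53inp1 at 169.8 CPM and 139 CPM, and Cdkn1a had 0 UMIs in naive and 8 UMIs in D2 CTX BM. The ratio of Cdkn1a to Ccng1 UMIs in D2 CTX BM was 0.117 (0.088 to 0.154) in B cells, 0.660 (0.596 to 0.729) in GMPs, 1.75 (1.57 to 1.94) in monocytes and 2.18 (1.73 to 2.76) in basophils or mast cells. The same ratio in naive BM was 0.114 in B cells, 1.61 in monocytes and 1.94 in basophils or mast cells, in the same order, while GMPs went from 0.135 (0.0516 to 0.298) to 0.660. A rise was not particular to GMPs. Pre-neutrophils went from 0.335 (0.258 to 0.430) to 0.633 (0.583 to 0.686), and erythroid cells, 45 in D2 CTX BM, from 0.108 to 1.91. The share of free RNA was not measured, and its part in these levels was not tested.

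**Figure D3:**
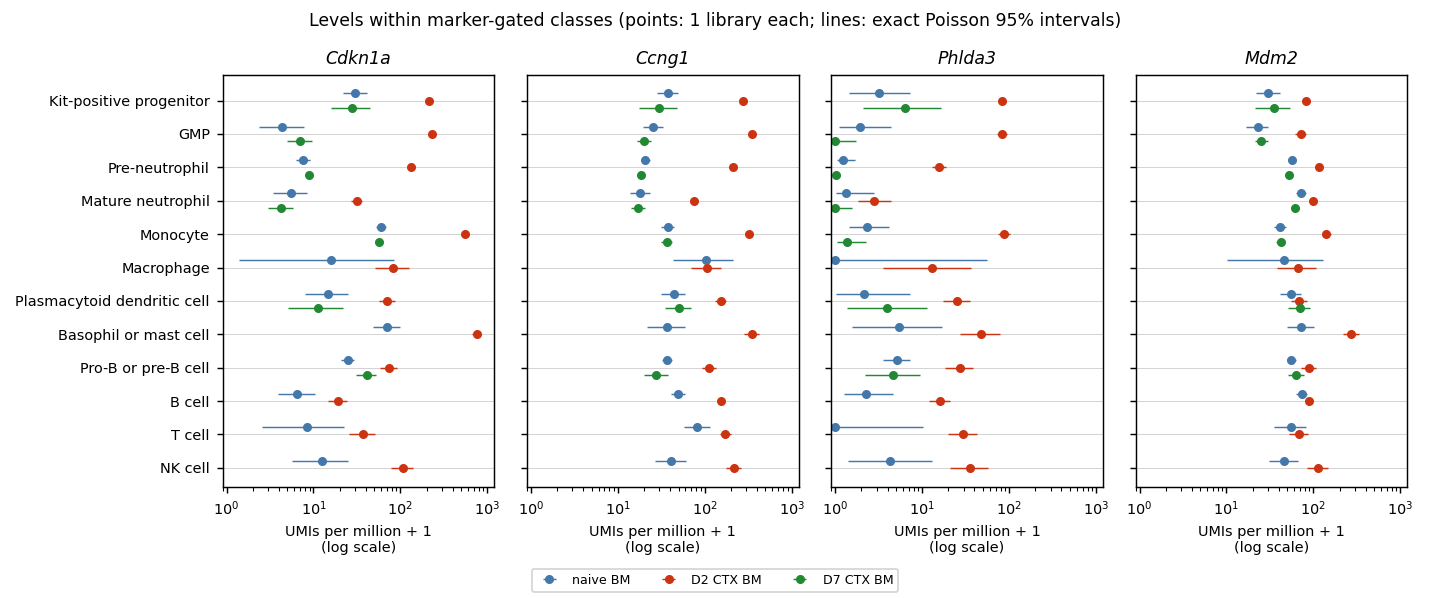
Levels of Cdkn1a, Ccng1, Phlda3 and Mdm2 in CPM + 1, on a log axis, in the 12 classes and in the 3 whole BM libraries (classes with at least 50 cells), with exact Poisson 95% intervals. D2 CTX points lie to the right of naive and D7 CTX points for Cdkn1a in all 12 classes, while the Ccng1 points of macrophages and the Mdm2 points of B, T and plasmacytoid dendritic cells lie close together.

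At D7 the genes were back near or below naive BM. None of the 9 was called higher and none lower, where 0.941% of 12431 genes were called higher and 22.5% lower, and the median log2 ratio was -0.49 for the 9 genes and -0.57 for all genes. Mdm2 had the highest D7 CTX over naive fold, 1.01 (0.956 to 1.06), and Phlda3 the lowest, 0.292 (0.185 to 0.451), from 72 to 31 UMIs. Pre-neutrophils were 58.4% of D7 CTX cells and 25.7% of naive cells, and Camp and Ngp, their granule genes, held 32260 and 30224 CPM of the D7 CTX library. When scaled by the median ratio, Mdm2 was 1.62-fold, Cdkn1a 1.39-fold, Sesn2 1.32-fold, Btg2 1.16-fold and Ccng1 1.13-fold the naive level, so the direction of Cdkn1a, Sesn2, Btg2 and Ccng1 depended on the scaling. With a pseudocount of 0.1 CPM, Phlda3, Zmat3 and Plk2 were called lower.

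Within the 7 classes with at least 50 cells in both libraries, 36 of 63 pairs could be compared, 2 were called higher in D7 CTX BM and 0 lower, where 0.921% of all such pairs were called higher. The 2 were Btg2 in Kit-positive progenitors, 378 CPM against 139.7 CPM in naive BM, 2.71-fold (2.22 to 3.31), and Plk2 in monocytes, 9.82 CPM against 4.27 CPM, 2.30-fold (1.30 to 4.30). The first rested on 50 cells at D7, and neither was called when classes were set by clusters. Ccng1 folds ran from 0.740 in pro-B or pre-B cells to 1.15 in plasmacytoid dendritic cells, and all 7 intervals held 1. Cdkn1a was at 55.4 CPM in D7 CTX monocytes and 58.7 CPM in naive monocytes, and at 5.95 CPM and 3.31 CPM in GMPs, on 29 and 7 UMIs. In pro-B or pre-B cells it was 1.68-fold (1.20 to 2.32) higher, below the limit for a call.

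In sorted monocytes, 1 of the 8 genes compared was called, Plk2, which was lower after CTX, where 0.909% of 10673 genes were called lower and 0.337% higher. Its level was 26.9 CPM in naive sorted and 10.5 CPM in CTX sorted cells, a fold of 0.390 (0.338 to 0.449). Cdkn1a (fold 0.599, 0.567 to 0.631) and Btg2 (fold 0.696, 0.677 to 0.716) were lower by less than the limit, and the intervals of Mdm2, Sesn2, Zmat3 and Trp53inp1 held 1. The immediate early genes moved the same way: of 12 compared, Egr1 and Nr4a1 were called lower and 0 higher, and Nr4a1 fell from 124 CPM to 54.9 CPM. Whether they have a part in the Cdkn1a and Plk2 levels was not tested.

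The monocyte gate allowed the same class to be read in all 5 libraries. Cdkn1a was at 58.7 CPM in naive, 558 CPM in D2 CTX and 55.4 CPM in D7 CTX monocytes of whole BM, and at 151 CPM in naive sorted and 93.5 CPM in CTX sorted monocytes. Plk2 was at 4.27, 21.1 and 9.82 CPM in whole BM and at 28.7 and 11.6 CPM in the sorted libraries, listed as before. Ccng1, in contrast, was at 36.6, 319 and 35.4 CPM in whole BM and at 32.8 and 28.9 CPM in sorted cells, and Phlda3 had 5 UMIs in naive sorted and 4 UMIs in CTX sorted monocytes. The sorted libraries were thus above naive whole BM for Cdkn1a and Plk2 and not for Ccng1 or Phlda3. The summed level of the 12 immediate early genes in the same gate was 3680, 4752 and 5231 CPM in naive, D2 CTX and D7 CTX whole BM and 16185 and 12341 CPM in naive and CTX sorted cells. Sorted and unsorted cells came from different libraries, so the sort and the library cannot be told apart.

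Single cells were compared after each was thinned at random to 1000 UMIs, which left out the cells below that depth (599 in D2 CTX and 285 in naive BM). At least 3 of the 9 genes had a UMI in 320 of 5527 D2 CTX cells, 5.79% (5.19 to 6.44), in 74 of 6819 naive cells, 1.09% (0.853 to 1.36), and in 27 of 8217 D7 CTX cells, 0.329% (0.217 to 0.478). The naive sorted library had 0.749% and the CTX sorted library 0.314%. The unthinned shares came to 34.998%, 16.8% and 15.5% in D2 CTX, naive and D7 CTX BM, and 54.8% and 40.1% in the deeper sorted libraries, so the order of libraries depended on depth.

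By class, the D2 CTX share was highest in basophils or mast cells, 9 of 55 cells or 16.4% (7.77 to 28.8), and in monocytes, 23 of 161 cells or 14.3% (9.28 to 20.7), against 1 of 73 and 1 of 507 naive cells. NK cells had 10.0% (5.10 to 17.2), pro-B or pre-B cells 8.83% (5.80 to 12.8) and T cells 7.42% (4.76 to 10.9). The lowest D2 CTX shares were in pre-neutrophils, 2.02% (1.20 to 3.17), and in plasmacytoid dendritic cells, 2.07% (0.568 to 5.22). In D2 CTX macrophages and plasma cells the counts were 0 of 54 and 0 of 48, where 3 cells would be 5.56% and 6.25%, with 69 shallower macrophages left out. Kit-positive progenitors (6.43%), B cells (6.17%), GMPs (5.80%) and mature neutrophils (4.79%) lay near the share of all cells. After thinning, Btg2 had a UMI in 36.1% and Trp53inp1 in 19.5% of D2 CTX cells, against 29.6% and 10.5% of naive cells. Phlda3 and Zmat3 had a UMI in only 1.79% and 1.56% of D2 CTX cells. The share thus depends on the abundant genes and does not rank classes by how far the 9 genes rose.

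**Figure D4:**
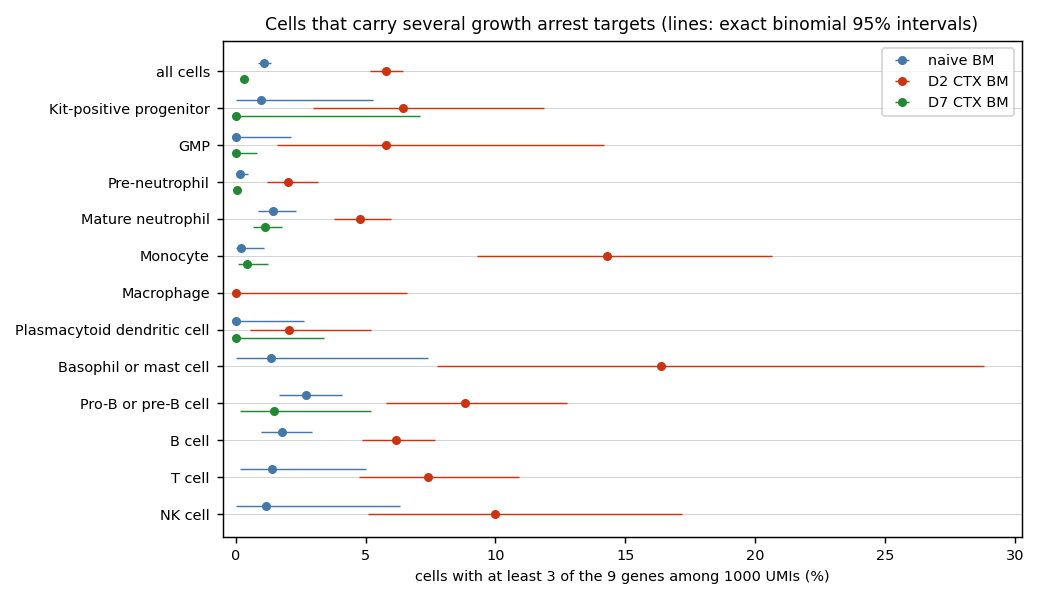
Percent of cells with a UMI of at least 3 of the 9 genes after thinning to 1000 UMIs, for all cells and for classes of naive, D2 CTX and D7 CTX BM, with exact binomial 95% intervals. For all cells the D2 CTX share is 5.79%, and monocytes (14.3%) and basophils or mast cells (16.4%) lie highest.

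Because these genes are named for growth arrest, cells were also split by whether they held at least 3 UMIs of a list of 16 cell cycle genes among the 1000. In D2 CTX pre-neutrophils the 131 cells with such UMIs had 216 CPM of Cdkn1a (197 to 236) and the 761 cells with fewer had 96.1 CPM (87.8 to 105). Ccng1 was at 313 CPM and 164 CPM in the same groups. In D2 CTX monocytes Cdkn1a was at 700 CPM (643 to 760) in 43 cells with cell cycle UMIs and at 433 CPM (391 to 478) in 118 with fewer. In GMPs Cdkn1a was at 274 CPM (248 to 302) and 178 CPM (156 to 202), and the direction was the same in Kit-positive progenitors, at 229 CPM and 178 CPM. Cdkn1a was thus higher in D2 CTX cells with cell cycle transcripts in all 4 classes. The cells with cell cycle UMIs were also deeper, with medians of 15378 against 4814 UMIs in pre-neutrophils, 18390 against 6087 in monocytes and 28746 against 24949 in Kit-positive progenitors, and the part of depth was not tested. In naive pre-neutrophils Cdkn1a was also higher in cells with cell cycle UMIs, 12.2 CPM against 4.43 CPM, but Ccng1 was not, with 14.8 CPM and 21.5 CPM. In D2 CTX Kit-positive progenitors the levels of Ccng1 were 274 CPM and 280.5 CPM, and Btg2 was at 81.2 CPM and 80.0 CPM.

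Pro-B or pre-B cells changed in make-up between the libraries. Cells with fewer cell cycle UMIs were 65.7% of the class in naive and 96.1% in D2 CTX BM. Btg2 was higher in the class as a whole at D2, 583 CPM against 336 CPM, but within the cells with fewer cell cycle UMIs it was at 694 CPM (640 to 751) in D2 CTX and 805 CPM (762 to 850) in naive BM. Trp53inp1 was 2.44-fold higher in the whole class and stood at 410 CPM (369 to 455) against 329 CPM (302 to 359) in these cells. Cdkn1a stood at 32.9 CPM (22.1 to 47.3) against 17.9 CPM (11.96 to 25.6), on 29 UMIs each, and these intervals overlap. The whole class held 77 Cdkn1a UMIs in D2 CTX and 128 in naive BM. Most of them thus lay outside the cells with fewer cell cycle UMIs, so the Cdkn1a call of the class rested largely on few cells at D2.

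**Figure D5:**
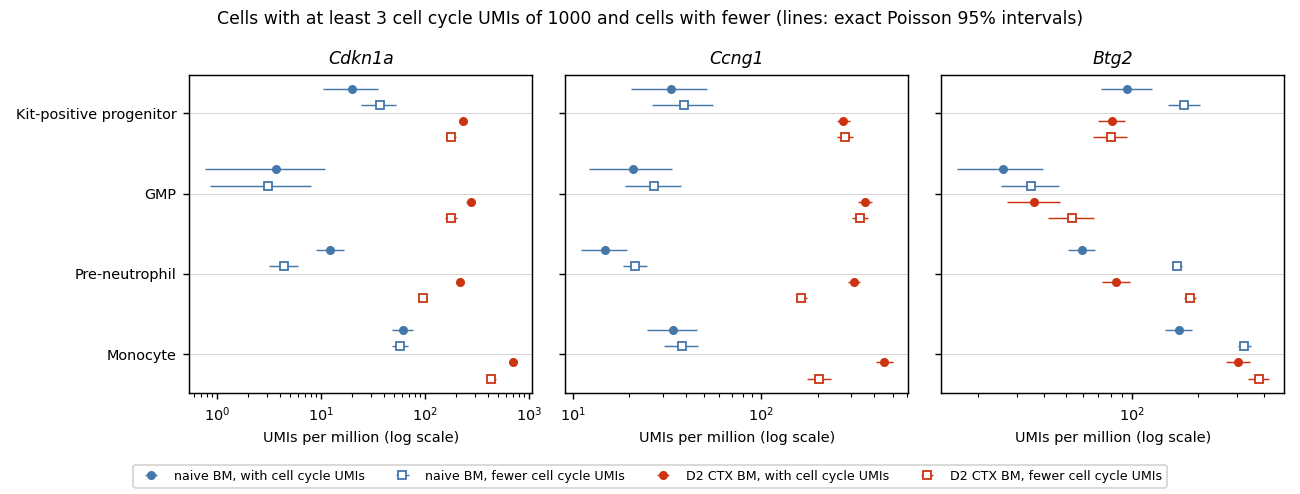
Levels of Cdkn1a, Ccng1 and Btg2 in CPM, on a log axis, in cells with at least 3 cell cycle UMIs of 1000 (filled) and in cells with fewer (open), for 4 classes of naive and D2 CTX BM, with exact Poisson 95% intervals. In D2 CTX pre-neutrophils and monocytes, Cdkn1a and Ccng1 are higher in the filled than in the open points, while Btg2 is lower.

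Other genes of the pathway were taken from lists by role. The lists were chosen with earlier results of these data known, so their counts are a description only. Trp53 itself was at 75.3 CPM in naive and 76.1 CPM in D2 CTX BM, a fold of 1.01 (0.961 to 1.06), and 0 of the 6 genes for p53 and its kinases were called. In the classes where it was compared, Trp53 was not called, and its folds ran from 0.689 (0.533 to 0.883) in pre-neutrophils to 1.44 (1.18 to 1.76) in GMPs. Of its kinases, Prkdc was called higher in GMPs (background 13.8%) and Chek2 lower in pro-B or pre-B cells (5.44%). Of 12 targets of cell death, 11 were compared and, against a background of 6.35% of 12671 genes, 8 were called higher. Among them were Bbc3, the BH3-only protein PUMA (6.10 CPM and 30.02 CPM), Bax, which permeabilises mitochondria and is named with its values in view (82.5 CPM and 225 CPM), and Eda2r, a death receptor, with 1 UMI in naive and 179 UMIs in D2 CTX BM. Eda2r came mostly from 1 class, with 101 of its 179 UMIs in Kit-positive progenitors. Of 11 targets of feedback and metabolism, 6 of 10 compared were called higher (background 6.35%). They included Gdf15 (0.130 CPM and 3.09 CPM), Trp53cor1 (0.434 CPM and 4.30 CPM), Pvt1, Dcxr and Plk3. Of 8 targets of DNA repair and nucleotide supply, Polk was called higher (6.51 CPM and 17.5 CPM) and Pcna, the sliding clamp of replication, lower (155 CPM and 65.7 CPM).

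In mature neutrophils 0 of the 6 compared were called, with Bax at 16.3 CPM in naive and 19.2 CPM in D2 CTX BM, a fold of 1.18 (0.83 to 1.69), and Bbc3 at 1.03-fold (0.646 to 1.66), while Ccng1 was 4.31-fold (3.23 to 5.84) and Cdkn1a 6.79-fold (3.92 to 12.7) higher. In B cells Bbc3 went from 2.10 CPM (5 UMIs) to 43.6 CPM (143 UMIs), 20.8-fold (8.69 to 64.9), beside 3.29-fold for Cdkn1a. Of the 16 cell cycle genes, 7 were called lower in D2 CTX BM (background 2.98% lower), all 16 in B cells (3.77%) and 11 in pro-B or pre-B cells (5.44%). B cells were not split by cell cycle UMIs, so a change in the make-up of that class was not examined. In Kit-positive progenitors 0 of 16 were lower (background 1.25%) and 1, Rrm2, was higher (3.65%). In GMPs 0 of 16 were lower (2.36%) and 2, Hells and Mcm3, were higher (13.8%). For a list of 16 genes these counts are near the background. Cdkn1a was 7.14-fold and 69.1-fold higher in the same classes. At D7, 3 of 10 cell death targets were called lower (Aen, Pidd1 and Trp53i11) and 0 higher. The share called lower was near the 22.5% of all genes. Trp53 was at 29.4 CPM in D7 CTX BM as a whole, where all 6 genes of its list were called lower. Within Kit-positive progenitors, GMPs and pre-neutrophils, 5, 6 and 6 of these genes were compared at D7 and 0 were called lower. In sorted cells 0 of 8 cell death targets were called. Of 8 integrated stress response genes compared, a pathway that can raise Sesn2 without p53, Slc7a11 was called higher (background 6.35%) and Asns lower (2.98%) in D2 CTX BM. In monocytes, where Sesn2 was 5.15-fold higher, 2 of 4 were called higher (Ddit3 and Sesn3, background 4.76%). In Kit-positive progenitors 0 of 6 were called and in GMPs 0 of 3, with Sesn2 18.7-fold and 11.8-fold higher. The part of these genes in the Sesn2 level was not tested.

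Over the 33 points of a class in a whole BM library with at least 50 cells, the genes most like Cdkn1a by Pearson's r of log2(CPM + 1), among 10847 genes, were Kank3 (r = 0.84), Phlda3 (0.83), Ccng1 (0.80), Dglucy (0.77) and Pdcd6ip (0.76). For Phlda3 they were Gm10076 (0.88), Ccng1 (0.86), Cdkn1a (0.83), Gstp1 (0.83) and Fam212b (0.82), and for Ccng1 they were Phlda3 (0.86), Pdcd6ip (0.85), Gm10076 (0.83), Exoc4 (0.82) and Gstp1 (0.81). Mdm2 was most like Stk17b (0.74), Myh9, Iqsec1, Ppp3ca and Dhx40. Within the set, Btg2 was least like Phlda3 (r = 0.07) and Cdkn1a (r = 0.08) and most like Trp53inp1 (r = 0.72). The points share 3 libraries and their depths, so these values are a description.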

How the data were processed

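The 5 libraries were 10x Genomics 3′ single-cell RNA libraries. The authors deposited raw UMI counts per gene and cell barcode, made with Cell Ranger 3.1 on mm10, and per the study's methods analysed them with Seurat 5.0. Their cell annotation was not used here, and both the whole BM and the sorted libraries held fewer barcodes than the cells stated in the study.

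From these counts, cells with at least 200 genes and under 20% mitochondrial UMIs were kept, leaving 22279758 to 67921924 UMIs per library. Doublets were kept, and removing those found by Scrublet (scanpy 1.11.5), 4.90% of D2 CTX and 5.69% of naive cells, was an alternative. Each cell took the class with the highest marker score of at least 0.3 and a margin of 0.1. These limits, and the split at 3 cell cycle UMIs, were set after seeing the data. Of the gated cells, 86.8% fell in a cluster (28 clusters) led by the same class. UMIs were summed per library and class and divided by their total. With 1 library per group, a call was a log2 ratio of CPM + 1 of at least 1, among genes with at least 50 UMIs. Intervals were exact Poisson, exact conditional and Clopper-Pearson 95% intervals (scipy 1.17.1), and cells were thinned to 1000 UMIs with numpy 2.4.6 under Python 3.11.15. The calculations were tested on simulated data.

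All 9 genes were named in every library. Of the other lists, genes at least 1 log2 unit from 0 were named, up to 5 in each direction, and for Cdkn1a, Ccng1, Mdm2 and Phlda3 the 5 genes with the highest r. A list of 6 genes expressed in every cell had 0 calls in each of the 3 library comparisons, while within D2 CTX classes Gapdh was called lower in basophils or mast cells and in NK cells, and Ppia in pro-B or pre-B cells. The members and lists were chosen with earlier results of these data known. Alternatives covered scaling, pseudocount, filters, doublets, class assignment, weighting and thinning.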

Additional observations from a re-analysis of the deposited data

Results flagged for a closer look

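Btg2, the antiproliferative gene that was not called in D2 CTX BM as a whole, moved in opposite directions in different classes. In D2 CTX over naive BM its fold was 2.77 in basophils or mast cells (128 naive and 252 D2 CTX UMIs) and 0.578 in Kit-positive progenitors (195 and 323 UMIs). In D7 CTX over naive BM its fold was 2.71 in Kit-positive progenitors and 0.679 in pro-B or pre-B cells (1815 and 316 UMIs). Each class had 1 library per condition, so the difference between classes was not tested.

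The barcodes left out by the quality limits also held these genes. In the 482 barcodes left out of D2 CTX BM the 9 genes summed to 406 CPM (335 UMIs), against 148 CPM (151 UMIs) in the 545 left out of naive BM. The barcodes left out of the sorted libraries held 443 CPM (184 UMIs) in naive sorted and 385 CPM (199 UMIs) in CTX sorted cells. Among barcodes left out, untreated sorted cells thus had a level near that of D2 CTX BM, but untreated whole BM did not. Sorted cells and whole BM are unlike mixes of cells.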

How the results depend on the processing

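No paired analysis was possible because each condition was 1 library and no comparison came from a test, and for the same reason no replicate could be left out. Across 9 alternatives, 6 or 7 of the 9 genes were called higher in D2 CTX BM, with Trp53inp1 lost under scaling by the median of gene ratios, and Plk2 was the 1 gene called lower in CTX sorted cells under each of 8. Of the 81 D2 CTX folds, 63 stayed inside their own interval, as did 52 of 81 at D7 and 71 of 72 in sorted cells. In D7 CTX BM, where 0 were called, a pseudocount of 0.1 CPM gave 3 lower (Phlda3, Zmat3 and Plk2) and the mean CPM of single cells 2 lower (Plk2 and Trp53inp1). Within classes, the 58 D2 CTX calls became 28 with at least 200 UMIs, by construction fewer pairs, and came to 51 to 83 in all otherwise. These totals hide changes by class: with classes set by clusters, plasmacytoid dendritic cells went from 5 to 0 calls, GMPs gave no comparison and an erythroid class added 7 calls, and with the mean of single cells pro-B or pre-B cells went from 5 to 2. There was 1 lower call under the mean of single cells and 1 without cells near a class boundary (added after seeing the data). The 2 calls at D7 became 1 with at least 200 UMIs, under the stricter cell filter, with doublets removed or without cells near a boundary, 0 with classes set by clusters and 7 (3 higher, 4 lower) with no filter. The median log2 ratio of all genes was 0.20 at D2 and -0.57 at D7.

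The share of cells with several of the genes depended on depth and on the number asked for. At 2000 UMIs D2 CTX BM had 16.1%, naive BM 3.61%, D7 CTX BM 1.89%, naive sorted cells 4.91% and CTX sorted cells 2.41%. Without thinning it was 34.998%, 16.8%, 15.5%, 54.8% and 40.1% in the same order. With at least 2 genes at 1000 UMIs it was 23.2%, 9.30%, 4.50%, 10.5% and 6.32%.

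Pooling 3 mice per whole BM library hides the spread between mice, and with 1 library per condition, library and condition cannot be told apart. Low genes limit the classes: 77 of 108 pairs at D2 and 36 of 63 at D7 had at least 50 UMIs.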
